A study of Mus musculus with 3 samples.

Results

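The CCN genes *Nov*, *Ctgf*, *Cyr61*, *Wisp1* and *Wisp2* were followed in stromal cells of early ectopic masses, as 5 of the 31053 genes listed in the count files. They were taken by their symbols, in the older naming that the files use, and all 5 were found in each library. Stromal cells were those in which *Col1a1*, *Col1a2*, *Col3a1*, *Dcn* and *Lum* together gave at least 1% of the unique molecular identifiers (UMIs, each a captured transcript molecule). They were split by whether a UMI of *Pi16*, *Sox9* or *Acan* was detected. The genes were selected on their levels and shares of cells in these same cells and libraries, so those values are given as a description, with no test.

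The study implanted Matrigel, a basement membrane gel, under the skin of female CD-1 mice aged 6 to 8 weeks and collected the masses on day 5. The Matrigel-only mice had gel without rhBMP2 and received nothing by mouth. The Vehicle and Palo mice had gel mixed with rhBMP2, a growth factor that starts cartilage and bone at the implant, and were given by gavage either corn oil/DMSO or 4 mg/kg of palovarotene, a retinoid agonist selective for RARγ. CD-1 is an outbred stock, and the cells of several masses per group entered 1 droplet library for each condition. A difference between libraries therefore has no check over animals, and every interval below is a 95% interval that covers counting error only.

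CCN proteins are secreted, cysteine-rich matricellular proteins that bind integrins, LRP receptors and heparan sulphate proteoglycans and so tune how a cell responds to its matrix and to growth factors. *Cyr61* (CCN1) and *Ctgf* (CCN2) are induced early by serum, mechanical load and TGF-β and are standard targets of the YAP and TEAD transcriptional regulators, and loss of *Ctgf* disturbs growth plate cartilage. *Nov* (CCN3) often moves against *Ctgf* in cartilage and fibrosis, *Wisp1* (CCN4) was found as a Wnt-induced gene and is used in bone formation, and *Wisp2* (CCN5) lacks the C-terminal domain that the other members carry.

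On mm10, GENCODE vM21 placed *Nov* at chr15:54745702-54754039 on the plus strand and *Wisp1* at chr15:66891320-66923201, also on the plus strand. *Ctgf* lay at chr10:24595442-24598683 (plus), *Cyr61* at chr3:145646976-145649981 (minus) and *Wisp2* at chr2:163820861-163833146 (plus). The sixth family member, *Wisp3* at chr10:39150970-39163794 (minus), is not in the set. It gave 1 UMI in stromal cells of Matrigel-only, 2 UMIs in those of Vehicle and 0 in those of Palo, all at or under a floor of 3 counts per library, so no level was derived for it.

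The promoter of *Cyr61* is shown because the YAP and TEAD genes are compared with the family below. RefSeq gives it on GRCm38.p6 at chr3:145649936-145650235, minus strand, as 250 bases before and 50 bases after the start site, and the capitals mark the letters that match the TEAD motif GGAATG on either strand.
Cyr61: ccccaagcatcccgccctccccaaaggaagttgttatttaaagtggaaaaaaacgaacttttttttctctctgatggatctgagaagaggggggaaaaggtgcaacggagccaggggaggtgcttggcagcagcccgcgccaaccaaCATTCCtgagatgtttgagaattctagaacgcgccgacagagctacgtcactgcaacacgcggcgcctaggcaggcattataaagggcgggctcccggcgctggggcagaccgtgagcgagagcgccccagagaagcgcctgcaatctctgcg
The match began 103 bases before the start site. GGAATG or its reverse complement was present in 14.7% of the 32851 RefSeq promoters of that length. The SMAD letters CAGACA were found in 21.0% of these promoters, the TCF/LEF letters CTTTGAT in 3.73% and the CArG box in 1.63%, each on both strands, and none of these 3 was found in the *Cyr61* window. A match describes letters and not a bound site.

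Of 8728 Matrigel-only, 5478 Vehicle and 7297 Palo cells that passed the filters, 2085 (23.9%), 1373 (25.1%) and 1184 (16.2%) were stromal, with between 15832240 and 23591212 UMIs per library in them. Their median depth was 9082 UMIs in Matrigel-only cells, 17114 UMIs in Vehicle cells and 12955 UMIs in Palo cells, so a cell of the Vehicle library had the best chance to show a given gene. All 12 genes of a stromal identity list, such as *Pdgfra* and *Prrx1*, were measured, at a mean over the libraries of 5 CPM (UMIs per 1000000) or more, in these cells, while none of the T and NK, neutrophil and basophil or adipocyte lists' genes reached it. That identity list includes *Col1a1*, *Col1a2*, *Col3a1*, *Dcn* and *Lum*, which define a stromal cell, so their detection was fixed in advance. The 10 macrophage markers summed to 1014 CPM in Matrigel-only, 327 CPM in Vehicle and 859 CPM in Palo stromal cells, against 25408, 19913 and 28278 CPM in macrophage-marked cells. They were lowest in Vehicle, as was *Nov*, and their part in the results was not tested. The libraries shared from 11 to 21 barcodes in pairs, of which at most 1 was a stromal cell in both. At the edge of the stromal definition, cells with 0.8 to 1% stromal UMIs (9, 15 and 3 per library) held 0 *Nov* UMIs, and those with 1 to 1.2% (9, 11 and 3) held 0, 0 and 1.

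*Nov* separated the libraries most clearly. In stromal cells it stood at 549 CPM in Matrigel-only (interval 539 to 559), 68.7 CPM in Vehicle (65.4 to 72.1) and 864 CPM in Palo (849 to 878). The 3 intervals lay apart, with the Vehicle library lowest and the Palo library highest. The Vehicle level was 0.125 times the Matrigel-only level, a log2 ratio of -3.00 (-3.07 to -2.92), and the Palo level was 12.6 times the Vehicle level, a log2 ratio of 3.65 (3.58 to 3.73). Palo exceeded Matrigel-only by 1.57-fold.

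*Wisp2* was lower in Vehicle as well, by less. Its level was 164 CPM in Matrigel-only (158 to 170), 72.0 CPM in Vehicle (68.6 to 75.5) and 104 CPM in Palo (99.2 to 109). The Vehicle library was again lowest, and Palo lay between the others. The log2 ratio was -1.19 (-1.27 to -1.10) for Vehicle over Matrigel-only, 0.53 (0.43 to 0.63) for Palo over Vehicle and -0.65 (-0.74 to -0.57) for Palo over Matrigel-only.

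*Cyr61*, a ligand of αv integrins, was measured at 388 CPM in Matrigel-only (379 to 396), 216 CPM in Vehicle (209.7 to 222) and 388 CPM in Palo (378 to 398). The Matrigel-only and Palo intervals overlapped nearly completely, with a log2 ratio of 0.00 (-0.05 to 0.05), and Vehicle lay below both by a log2 ratio of -0.85 (-0.90 to -0.80) against Matrigel-only. *Ctgf*, which promotes matrix production, stood at 189 CPM in Matrigel-only (183 to 195), 196 CPM in Vehicle (190.4 to 202) and 269 CPM in Palo (261 to 277). Matrigel-only and Vehicle did not differ beyond counting error, with a log2 ratio of 0.05 (-0.01 to 0.11), and Palo was above Vehicle by 0.45 (0.39 to 0.51). *Cyr61* and *Ctgf*, the canonical YAP and TEAD targets of the family, thus had different orders of the libraries.

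*Wisp1* was the member whose Matrigel-only level stood apart below both other libraries, at 99.1 CPM (94.7 to 104). It stood at 168 CPM in Vehicle (162 to 173) and 160.4 CPM in Palo (154 to 167), and these intervals overlapped. The log2 ratio over Matrigel-only was 0.76 (0.68 to 0.84) for Vehicle and 0.70 (0.61 to 0.78) for Palo.

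**Figure D1:**
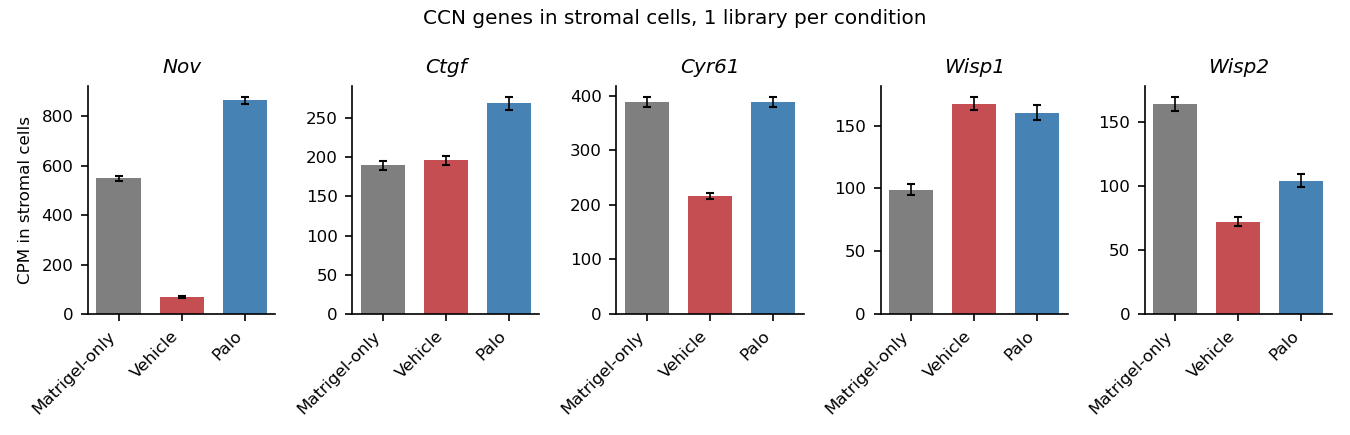
Level of each CCN gene in stromal cells, in CPM on axes that start at 0 and differ between panels, with 1 bar per library and exact Poisson 95% intervals that cover counting error only. *Nov* is at 549, 68.7 and 864 CPM in Matrigel-only, Vehicle and Palo, and *Wisp1* at 99.1, 168 and 160.4 CPM.

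A gene was counted as past 2-fold on the log2 scale of CPM with 5 CPM added, and the same limit was applied to all 10311 genes at a mean of at least 5 CPM. For Vehicle over Matrigel-only, 0 members were past 2-fold higher, beside 3.35% of all genes, and 2 were past 2-fold lower (*Nov* and *Wisp2*), beside 7.09%. For Palo over Vehicle 1 member (*Nov*) was higher, beside 4.47%, and 0 were lower, beside 3.28%. For Palo over Matrigel-only 0 members were past 2-fold in either direction, beside 0.272% of genes higher and 0.873% lower. The median log2 ratio of the 5 members on this scale was -0.83, 0.50 and 0.49 in the 3 comparisons, and that of all genes was -0.04, 0.01 and -0.03. The comparisons share libraries and the members were chosen on these values, so nothing is read from the counts beyond the description. The 5 genes together gave 1389 CPM in Matrigel-only, 719.9 CPM in Vehicle and 1784 CPM in Palo.

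The share of cells with a UMI was set at equal depth by thinning each stromal cell to 3000 UMIs, so that cells below that depth dropped out (202 of Matrigel-only, 69 of Vehicle and 53 of Palo). *Nov* was then present in 43.2% of Matrigel-only (41.0 to 45.5%), 7.23% of Vehicle (5.88 to 8.77%) and 56.6% of Palo stromal cells (53.7 to 59.5%), and without thinning in 55.6%, 13.0% and 72.5%. *Nov* was therefore found in few Vehicle cells: the tenth of cells with most *Nov* held 97.5% of its UMIs there, 61.0% in Matrigel-only and 49.6% in Palo. Single cells with many copies were present in all libraries, with a highest count of 157 *Nov* UMIs in a Vehicle cell, 137 in a Matrigel-only cell and 128 in a Palo cell.

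The thinned share of *Cyr61* was 52.5% of Matrigel-only, 36.0% of Vehicle and 48.4% of Palo cells (unthinned 70.6%, 67.2% and 72.6%). *Ctgf* was present in 21.3%, 20.5% and 27.5% (unthinned 32.8%, 39.1% and 45.5%). *Wisp1* was present in 17.1%, 33.6% and 29.7% (unthinned 29.8%, 70.9% and 55.5%). For these genes the thinned shares had the order of the CPM values where intervals lay apart, and the deeper Vehicle library stood nearer to or above the others without thinning. *Wisp2* was present in 22.3%, 11.7% and 16.9% of cells after thinning and in 32.8%, 27.7% and 30.8% without it.

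Macrophage-marked cells were taken as a reference for free RNA. Their limit of 0.2% stromal UMIs leaves out the cells with most stromal RNA, so this reference may be too low. It was also uneven, since 1 Vehicle cell held 16 of its 85 *Nov* UMIs. Macrophage-marked cells of at least 3000 UMIs, which gave the thinned shares, were 3201 of 6113 in Matrigel-only, 2115 of 3486 in Vehicle and 4567 of 5905 in Palo. Over all macrophage-marked cells the median depths were 3107, 3606.5 and 4243 UMIs. The thinned shares ran from 0.229% (*Wisp2* in Palo) to 1.44% (*Nov* in Matrigel-only), and every stromal share was above this range. The *Nov* level in macrophage-marked cells was 5.75 CPM in Matrigel-only, 5.59 CPM in Vehicle and 5.74 CPM in Palo, with a log2 ratio of -0.04 (-0.46 to 0.37) for Vehicle over Matrigel-only. Between 92.7% (*Nov* in Vehicle) and 98.8% of each member's UMIs lay in stromal cells.

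**Figure D2:**
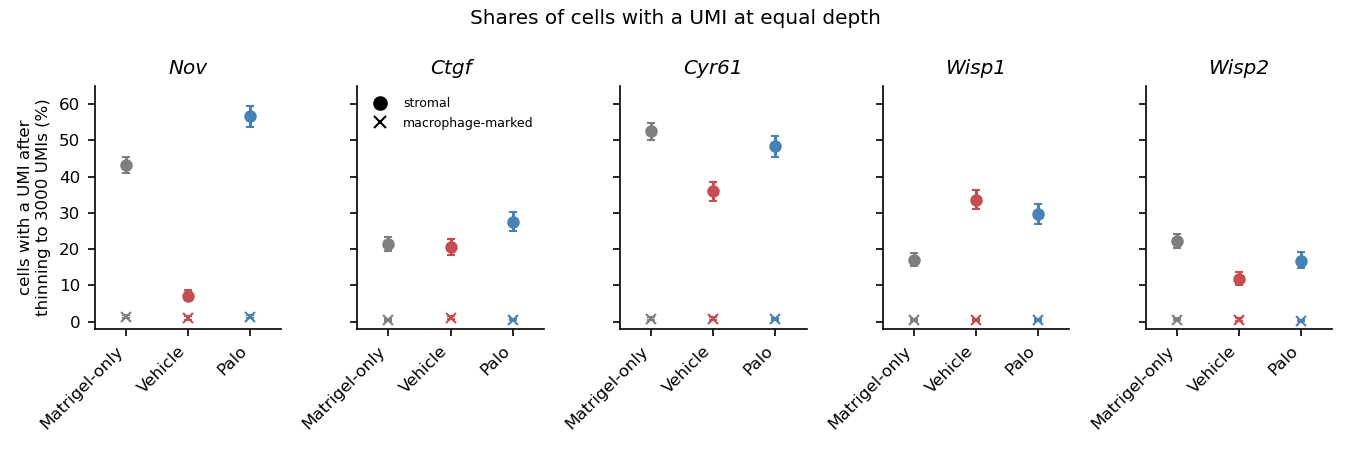
Percent of cells with at least 1 UMI after thinning to 3000 UMIs, for stromal cells (circles) and macrophage-marked cells (crosses) of each library, with exact binomial 95% intervals. The *Nov* share in stromal cells is 7.23% in Vehicle against 43.2% in Matrigel-only and 56.6% in Palo, and all crosses lie at or below 1.44%.

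The stromal classes were cut on detected UMIs. *Pi16* marks fibroblast progenitors, *Sox9* is the transcription factor that commits cells to cartilage, and *Acan* encodes the cartilage proteoglycan aggrecan. Cells with *Acan* numbered 779 in Vehicle (56.7% of stromal cells), 1 in Matrigel-only and 4 in Palo, so that class was read in Vehicle only. Of the rest, the Pi16+ class (no *Sox9* UMI) held 1012, 80 and 312 cells in Matrigel-only, Vehicle and Palo, the Sox9+ class (no *Pi16* UMI) 353, 339 and 349, cells with both 140, 52 and 56, and cells with none of the 3 genes 579, 123 and 463. The classes depend on depth, since a shallow cell can miss a gene, and the median depth was 8143.5 UMIs in Matrigel-only and 12621 UMIs in Vehicle Pi16+ cells. In Vehicle macrophage-marked cells *Acan* gave a UMI in 3.82%, and 83 of the 779 Acan+ cells rested on a single *Acan* UMI. Of all stromal cells with *Sox9* detected, 251 of 494 in Matrigel-only, 162 of 1094 in Vehicle and 208 of 408 in Palo had a single *Sox9* UMI. The Sox9+ class was therefore not alike in the 3 libraries.

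The *Nov* difference between Matrigel-only and Vehicle depended on the class. In Pi16+ cells it stood at 353 CPM in Matrigel-only (339.9 to 366), 319 CPM in Vehicle (284 to 357) and 892 CPM in Palo (859.9 to 925). Matrigel-only and Vehicle overlapped there, with a log2 ratio of -0.14 (-0.32 to 0.03), and Palo was above Vehicle by 1.48 (1.31 to 1.66). The Palo over Matrigel-only log2 ratio was 1.34 (1.26 to 1.41) in this class, against 0.29 in Sox9+ cells and 0.32 in cells with none of the 3 genes. In Sox9+ cells *Nov* stood at 624 CPM, 74.5 CPM and 764 CPM, and the log2 ratio of Vehicle over Matrigel-only was -3.07 (-3.21 to -2.92) and that of Palo over Vehicle 3.36 (3.22 to 3.50). In cells with none of the 3 genes it stood at 779.6 CPM, 56.1 CPM and 971 CPM, a log2 ratio of -3.80 (-4.12 to -3.49) for Vehicle over Matrigel-only. In cells with both *Pi16* and *Sox9* the levels were 513, 465 and 651 CPM, and the Matrigel-only and Vehicle intervals (478 to 550.4 and 420.5 to 512 CPM) overlapped. The second overlap rested on 1 Vehicle cell with 157 *Nov* UMIs. Without the cell richest in *Nov* of each class and library, an alternative added after the data were seen, this class stood at 428 CPM in Matrigel-only (396 to 462), 291 CPM in Vehicle (256 to 329.5) and 598 CPM in Palo, and the Vehicle level in cells with none of the 3 genes went from 56.1 to 25.1 CPM, since 49 of its 88 UMIs lay in a single cell. In Pi16+ cells the same step gave 346 CPM in Matrigel-only (333 to 359) and 282 CPM in Vehicle (249 to 318), with intervals apart. *Nov* was thus far below Matrigel-only in the Vehicle classes without *Pi16*. In the classes with *Pi16* it overlapped Matrigel-only with all cells, and lay below it without the richest cell. The Acan+ cells of Vehicle held 25.4 CPM (22.8 to 28.2).

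*Wisp2* had its highest level of each library in cells with both *Pi16* and *Sox9*, at 303 CPM in Matrigel-only, 446 CPM in Vehicle and 181 CPM in Palo. In Pi16+ cells it stood at 215 CPM (205 to 225), 296 CPM (263 to 333) and 141 CPM (129 to 155). Within this class Vehicle was the highest library and not the lowest, with a log2 ratio of 0.46 (0.28 to 0.65) over Matrigel-only and of -1.07 (-1.28 to -0.85) for Palo over Vehicle. In Sox9+ cells *Wisp2* stood at 116, 71.8 and 86.3 CPM, in cells with none of the 3 genes at 91.6, 91.8 and 90.2 CPM with overlapping intervals, and in Vehicle Acan+ cells at 31.0 CPM.

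*Wisp1* was lowest in the Pi16+ class of every library, at 39.9 CPM in Matrigel-only, 45.9 CPM in Vehicle and 68.5 CPM in Palo. Sox9+ cells held 155, 235 and 190.1 CPM. The log2 ratio of Sox9+ over Pi16+ cells was 1.95 (1.76 to 2.15) in Matrigel-only, 2.36 (1.93 to 2.83) in Vehicle and 1.47 (1.26 to 1.69) in Palo, the same direction in all 3 libraries. Vehicle cells with none of the 3 genes held 246 CPM of *Wisp1* and Acan+ cells 140.2 CPM.

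*Ctgf* was also lowest in Pi16+ cells, at 117 CPM in Matrigel-only, 95.9 CPM in Vehicle and 161 CPM in Palo, against 255, 272 and 229 CPM in Sox9+ cells. The Vehicle Pi16+ value was 62.6 CPM without 1 cell that held 33 of its 92 UMIs. In cells with both *Pi16* and *Sox9* the *Ctgf* level was 394 CPM (364 to 427) in Matrigel-only, 201 CPM (173 to 233) in Vehicle and 411 CPM (369 to 456) in Palo. The last was 337 CPM without 1 cell that held 70 UMIs. The highest class level of *Ctgf* was 596 CPM (559 to 636) in the 123 Vehicle cells with none of the 3 genes, where the log2 ratio was 1.65 (1.53 to 1.78) over Matrigel-only. The equal pooled levels of *Ctgf* in Matrigel-only and Vehicle therefore held classes that differed. *Cyr61* ranged from 337 to 530.2 CPM over the 4 classes of Matrigel-only and from 258 to 325 CPM over the same classes of Vehicle. In Palo it ran from 214 CPM in Pi16+ cells to 454 CPM in cells with none of the 3 genes, and Vehicle Acan+ cells held 176 CPM.

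**Figure D3:**
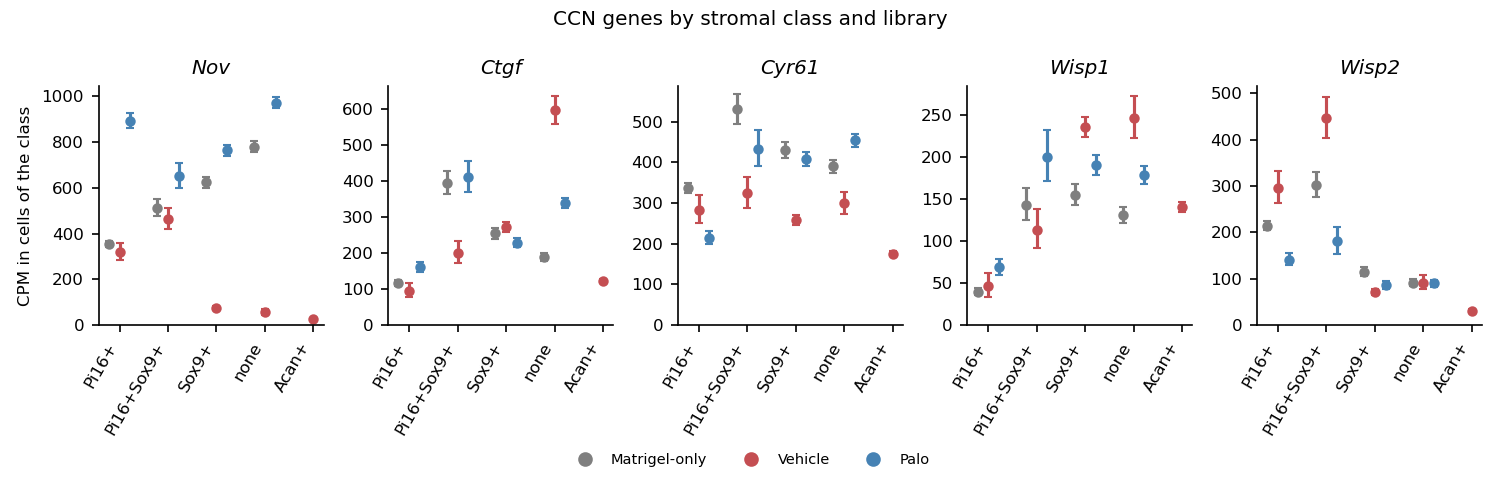
Level of each CCN gene in CPM (axes start at 0 and differ between panels) in stromal cells by detected *Pi16*, *Sox9* and *Acan*, coloured by library, with exact Poisson 95% intervals, and Acan+ cells shown for Vehicle only. *Nov* in Vehicle is at 319 CPM in Pi16+ cells and at 74.5 CPM in Sox9+ cells, and *Wisp1* is lowest in Pi16+ cells of each library.

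Between Sox9+ and Pi16+ cells of Matrigel-only, 2 members (*Ctgf* and *Wisp1*) were past 2-fold higher, beside 4.08% of all genes, and 0 lower, beside 3.5%. In Vehicle *Ctgf* and *Wisp1* were higher, 2 members beside 5.1% of genes, and *Nov* and *Wisp2* lower, 2 beside 7.07%. In Palo 1 member (*Wisp1*) was higher, beside 3.01%, and 0 lower, beside 3.32%. *Nov* was on the higher side in Sox9+ cells of Matrigel-only, with a log2 ratio of 0.82 (0.75 to 0.90), and on the lower side in Vehicle, at -2.10 (-2.31 to -1.89). With classes cut after thinning each cell to 3000 UMIs, the Vehicle value on the scale with 5 CPM added went from -2.03 to -0.97 and was no longer past 2-fold.

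In Vehicle, Acan+ against Pi16+ cells had 1 member past 2-fold higher (*Wisp1*, beside 6.61% of genes) and 2 lower (*Nov* and *Wisp2*, beside 8.75%). Against Sox9+ cells, 0 members were higher (beside 1.66%) and 3 were lower, *Nov*, *Ctgf* and *Wisp2*, beside 0.985% of genes. With stromal genes at 3% of UMIs or more, *Nov* went from -1.39 to -0.82 and *Wisp2* from -1.10 to -0.78 on the scale with 5 CPM added, and 1 member (*Ctgf*) stayed past 2-fold. With classes cut on thinned cells they went the other way, *Nov* to -2.90 and *Wisp2* to -2.09. *Ctgf* ranged from -1.14 to -0.85 over all the settings tried, so it too was not past 2-fold in every one.

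All 5 members were lower in the Vehicle cells with more *Acan*. The share of all genes with this pattern was not counted, so nothing is read from the number of members. Over the groups described next, from no *Acan* to high, *Col1a1* also fell, at 22950, 21791, 18454 and 15319 CPM. *Postn* did not, at 3415, 4357, 4360 and 3600 CPM. The Acan+ cells were divided into 3 equal groups by the *Acan* share of their UMIs (363, 1786 and 4382 CPM of *Acan*), of 260, 259 and 260 cells, beside 594 cells with no *Acan* UMI. *Nov* stood at 131 CPM without *Acan* and at 65.9, 6.55 and 0.865 CPM from the low to the high group, the last of these resting on 4 UMIs. *Wisp2* stood at 131, 66.3, 17.4 and 6.70 CPM, and *Pi16* itself at 194, 50.7, 9.26 and 0.865 CPM. The cells without *Acan* pool those with and without *Pi16*. Without *Pi16*, *Nov* stood at 74.5 CPM in Sox9+ cells and 56.1 CPM in cells with none of the 3 genes. *Wisp2* stood there at 71.8 and 91.8 CPM. In the high group *Nov* was below its level in macrophage-marked cells of the same library (5.59 CPM), and *Wisp2* was above its level there (1.97 CPM). The high group had a median depth of 17279 UMIs, and those macrophage-marked cells 3606.5 UMIs. A given amount of free RNA is fewer CPM in a deeper cell, so *Nov* was not shown to lie below it.

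The other members were lower by less over the same cells. *Ctgf* stood at 301, 182, 108 and 76.3 CPM, *Wisp1* at 207, 187, 149 and 82.8 CPM, and *Cyr61* at 273, 203, 163 and 159 CPM, where the middle and high groups overlapped (152 to 176 and 147 to 171 CPM). Median depth was between 16422.5 and 18341 UMIs in the 4 groups. *Sox9* stood at 212, 370, 671 and 875 CPM, and *Col2a1*, the cartilage collagen, at 24.2, 212, 1678 and 6204 CPM.

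**Figure D4:**
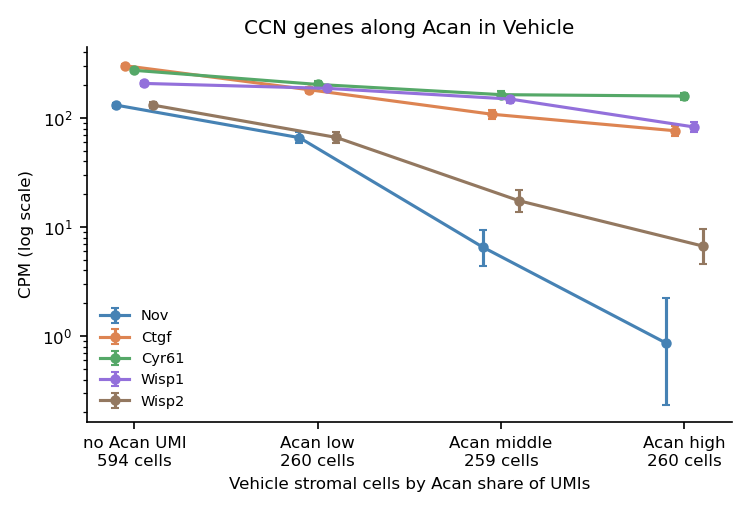
Level of each CCN gene (CPM, log axis) in Vehicle stromal cells with no *Acan* UMI and in 3 equal groups of Acan+ cells by their *Acan* share of UMIs, with exact Poisson 95% intervals. *Nov* runs from 131 to 0.865 CPM and *Wisp2* from 131 to 6.70 CPM, while *Cyr61* stays between 159 and 273 CPM.

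Because the class mix differed between the libraries, each class level was also averaged with the Matrigel-only class shares of UMIs, with Acan+ cells left out. The kept classes were not alike, so differences at this mix need not be between like cells. In Vehicle, *Col2a1* gave a UMI in 18.6% of Sox9+ cells, 8.75% of Pi16+ cells, 17.3% with both genes and 10.6% with none of the 3. In the same classes of the other libraries it did so in at most 0.173%. *Nov* was then at 549 CPM in Matrigel-only, 200.3 CPM in Vehicle and 869.7 CPM in Palo, and its log2 ratio with 5 CPM added went from -2.91 to -1.43 for Vehicle over Matrigel-only and from 3.56 to 2.09 for Palo over Vehicle. Other class shares, classes on thinned cells or leaving out the cell richest in *Nov* of each class gave -2.12 to -1.69 and 2.27 to 2.59. *Nov* kept its side of 2-fold in both comparisons. For Vehicle over Matrigel-only at this mix 0 members were higher, beside 1.21% of all genes, and 1 lower, beside 1.39%, and for Palo over Vehicle 1 was higher, beside 1.04%, and 0 lower, beside 1.63%. *Wisp2* was at 164, 199.5 and 118 CPM. Vehicle was now above Matrigel-only, with a log2 ratio of 0.28 in place of -1.13, and Palo below Vehicle, with -0.74 in place of 0.50. With the same alternatives counted in, these *Wisp2* ratios ran from 0.08 to 0.28 and from -0.74 to -0.47. *Ctgf* was at 189, 289.9 and 248 CPM, and its Vehicle over Matrigel-only value went from 0.05 to 0.60 and its Palo over Vehicle value from 0.44 to -0.22, so that Palo was no longer above Vehicle. *Cyr61* was at 388, 286 and 343 CPM and *Wisp1* at 99.1, 151 and 137 CPM, with the Vehicle over Matrigel-only directions of the pooled cells.

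**Figure D5:**
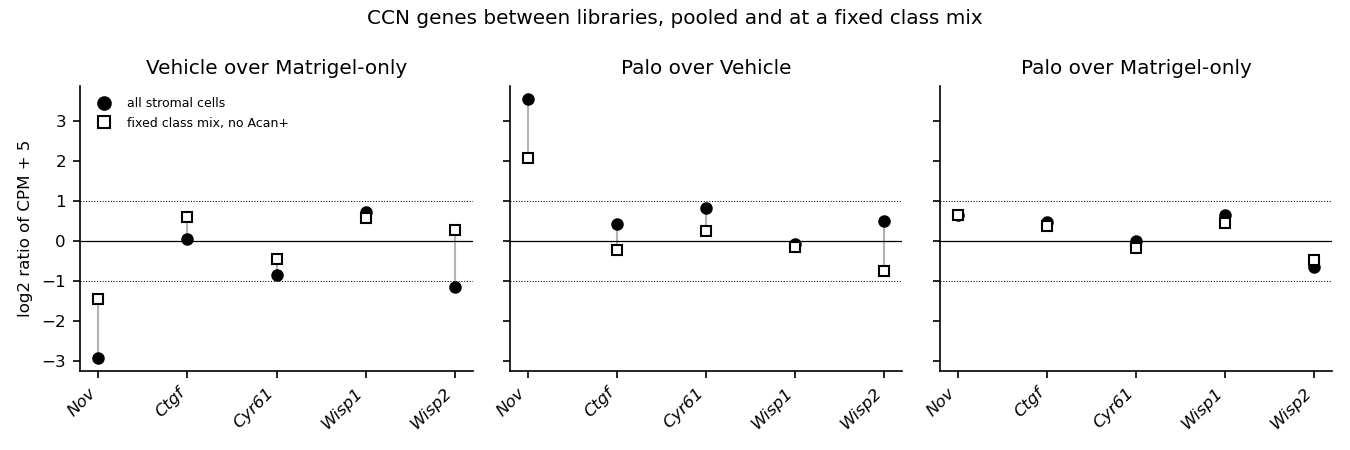
Log2 ratios of CPM + 5 between libraries for each CCN gene, in all stromal cells (filled circles) and at a fixed class mix without Acan+ cells (open squares), with dotted lines at 2-fold. *Nov* stays past 2-fold for Vehicle over Matrigel-only (-2.91 and -1.43) and Palo over Vehicle (3.56 and 2.09), and *Wisp2* crosses 0 in both.

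Of the CCN receptors, which include integrins, LRP co-receptors and syndecan-4, 14 of 15 listed genes were measured at 5 CPM or more. For Vehicle over Matrigel-only 0 were past 2-fold higher, beside 3.35% of all genes, and 4 lower, beside 7.09%, with a median log2 ratio of -0.48. For Palo over Vehicle 2 were higher, beside 4.47%, and 1 lower, beside 3.28%, with a median of 0.40. The same shares of all genes stand beside the counts of each list below. The endocytic receptor *Lrp1* stood at 807 CPM in Matrigel-only, 402 CPM in Vehicle and 597 CPM in Palo, and the integrin chain *Itgb5* at 235, 109 and 219 CPM. The common β chain *Itgb1* (453, 506 and 514 CPM) and its partner *Itga5* (191, 207 and 187 CPM) differed by at most 0.18 on the log2 scale in the 3 comparisons. For Palo over Matrigel-only 0 of the 14 were past 2-fold, beside 0.272% of all genes higher and 0.873% lower.

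Among YAP and TEAD genes, 18 of 20 were measured, with 2 higher and 2 lower for Vehicle over Matrigel-only (median -0.24) and 2 higher and 2 lower for Palo over Vehicle (median 0.13). The co-activator *Wwtr1* (TAZ) stood at 112, 94.1 and 107 CPM, and *Myof* at 128, 96.6 and 138 CPM. The receptor kinase *Axl*, a YAP target, stood at 506, 73.5 and 368 CPM, with the Vehicle library lowest as for *Nov*. *Dlc1* was at 141, 119 and 106 CPM. For Palo over Matrigel-only 0 of the 18 were past 2-fold, where few of all genes were (0.272% higher and 0.873% lower).

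The SRF and actin list, another target set of stretch and serum, had 4 of 13 genes higher and 0 lower for Vehicle over Matrigel-only (median 0.38), 0 higher and 2 lower for Palo over Vehicle (median 0.02), and 1 higher for Palo over Matrigel-only. Smooth muscle actin *Acta2* stood at 176, 828 and 316 CPM, *Tpm2* at 178, 511 and 267 CPM, *Tpm1* at 261, 403 and 350.4 CPM and filamin A, *Flna*, at 316, 362 and 351 CPM. In the TGF-β response list 3 of 12 genes were higher and 0 lower for Vehicle over Matrigel-only (median 0.06), and 0 were higher and 2 lower for Palo over Vehicle (median -0.02). The matrix gene *Tgfbi* stood at 118, 753 and 198 CPM, *Ltbp2* at 402, 346 and 578 CPM and the feedback inhibitor *Pmepa1* at 567, 583 and 369.9 CPM. Of these, *Ltbp2* had the library order of *Nov*.

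Of 13 Wnt response genes 6 were measured, with 1 higher and 2 lower for Vehicle over Matrigel-only (median -0.09) and 1 higher and 1 lower for Palo over Vehicle (median 0.26). The Wnt antagonist *Dkk2* stood at 75.4 CPM in Matrigel-only, 4.37 CPM in Vehicle and 85.2 CPM in Palo, *Kremen1*, its co-receptor, at 64.1, 90.5 and 70.1 CPM, *Nkd2* at 7.73, 32.6 and 13.7 CPM and *Axin2* at 17.3, 4.71 and 11.9 CPM. Of 18 hypoxia-induced genes 2 were higher and 0 lower for Vehicle over Matrigel-only (median 0.63), 0 higher and 12 lower for Palo over Vehicle (median -1.52), and 0 higher and 7 lower for Palo over Matrigel-only (median -0.72). The collagen-modifying enzymes *Plod2* (537, 919 and 415 CPM), *P4ha2* (452, 732 and 389 CPM) and *P4ha1* (339, 459 and 283 CPM) and the mitophagy gene *Bnip3* (173, 384 and 94.0 CPM) were highest in Vehicle.

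*Cyr61* and *Ctgf* belong to the genes that stress and enzymatic digestion can induce, and the masses were dispersed with dispase before capture. The 24 genes of a dissociation and immediate early list gave 2 higher and 13 lower for Vehicle over Matrigel-only (median -1.11), 14 higher and 0 lower for Palo over Vehicle (median 1.21) and 0 in either direction for Palo over Matrigel-only (median 0.04). Their summed level was 3844 CPM in Matrigel-only, 2793 CPM in Vehicle and 3869 CPM in Palo stromal cells, and 6559, 6105 and 6790 CPM in macrophage-marked cells. *Jun* stood at 355, 226 and 357 CPM and *Jund* at 416, 278 and 413 CPM, whereas the chaperone *Hsp90aa1* (421, 658 and 447 CPM) and *Ier3* (210.4, 429 and 259 CPM) were highest in Vehicle. The list moved with *Cyr61* between the libraries, and its part in the result was not tested.

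The markers of other cell states differed between the libraries, and not only through the class mix. Within Sox9+ cells the macrophage markers summed to 882 CPM in Matrigel-only, 207 CPM in Vehicle and 793 CPM in Palo. Of the 12 stromal identity genes 0 were past 2-fold higher and 7 lower for Vehicle over Matrigel-only (median -1.16), and 6 were higher and 0 lower for Palo over Vehicle (median 1.04), so that most were lowest in Vehicle, as was *Nov*, and their part in the results was not tested. The follistatin-like gene *Fstl1* stood at 6456, 1924 and 5344 CPM, and *Col1a2* at 19699, 18805 and 25061 CPM, *Col1a1* at 24627, 20370.1 and 31403 CPM and *Col3a1* at 25917, 11387 and 24671 CPM, the last 3 being genes of the stromal definition itself. *Dcn* and *Lum* of that definition are on the list too, and *Col3a1* and *Dcn* are among those lower for Vehicle over Matrigel-only. All 12 measured cartilage genes were past 2-fold higher for Vehicle over Matrigel-only and lower for Palo over Vehicle, and all 10 fibroblast progenitor genes were lower for Vehicle over Matrigel-only, with 9 of 10 higher for Palo over Vehicle. Among them, *Col11a1* stood at 19.9, 958 and 61.8 CPM, *Sox9* at 53.5, 461 and 57.3 CPM and *Col2a1* and *Acan* above 1 CPM in Vehicle alone, and the progenitor genes *Ly6a* at 2202, 906 and 1269 CPM, *Igfbp5* at 1219, 75.0 and 683 CPM, *Cd34* at 916, 113 and 509 CPM and *Clec3b* at 906, 77.4 and 489 CPM. Of the 10 macrophage markers 8 were lower for Vehicle over Matrigel-only and 5 higher for Palo over Vehicle, with *Lyz2* at 440.3, 148 and 431 CPM, *C1qa* at 121, 31.5 and 91.1 CPM, *C1qb* at 112, 26.3 and 83.5 CPM and *Fcer1g* at 85.4, 32.5 and 61.8 CPM. Of 8 pericyte and smooth muscle genes 5 were measured, with 3 higher and 2 lower in Vehicle against Matrigel-only (*Cspg4* 11.3, 79.6 and 15.3 CPM, *Des* 2.49, 19.7 and 8.34 CPM, *Kcnj8* 30.1, 6.74 and 18.3 CPM, *Abcc9* 15.8, 2.37 and 8.78 CPM). Of 8 endothelial genes 1 (*Kdr*) was measured, at 17.8, 2.54 and 11.6 CPM, while *Egfl7* stood at 3.19, 5.30 and 3.79 CPM, *Vwf* at 1.15, 0.254 and 0.695 CPM and *Pecam1* under 1 CPM in each library.

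The genes whose levels ran most like each member were found over the 13 class-by-library groups of at least 30 cells, among 4320 genes of at least 50 CPM in a group. These groups share libraries and depths, and no p is given. For *Nov* they were *Nnmt* (Pearson r = 0.96), *Osr1* (0.95), *Vat1* (0.94), *Galnt17* (0.94) and *Cuedc1* (0.93). For *Wisp2* they were *H2-K1* (0.97), *Ifi203* (0.96), *Mndal* (0.95), *Il4ra* (0.93) and *Il33* (0.92). *Wisp1* ran with *Cnn2* (0.94), *Mical2* (0.94), *Ncam1* (0.93) and *Fmnl3* (0.93), and *Ctgf* with *Slc20a1* (0.93), *Plekhg2* (0.89), *Pafah1b2* (0.88), *Bcl10* (0.87) and *Tead1* (0.85). *Cyr61* ran with *Cstb* (0.91), *Klf6* (0.91), *Btg2* (0.89), *Cacna2d1* (0.88) and *Cacna1g* (0.88), of which *Klf6* and *Btg2* were also on the immediate early list. Among the members the highest value was 0.80, between *Ctgf* and *Wisp1*, and the lowest -0.48, between *Wisp1* and *Wisp2*.

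Across single stromal cells of at least 3000 UMIs, the Spearman correlation of *Ctgf* with *Cyr61* was 0.34 in Matrigel-only (1883 cells), 0.37 in Vehicle (1304 cells) and 0.47 in Palo (1131 cells). *Ctgf* and *Wisp1* gave 0.45, 0.20 and 0.43. *Nov* and *Wisp2* gave -0.02, 0.39 and 0.06, and *Nov* and *Ctgf* 0.05, 0.05 and -0.05. Cells of 1 library share its depth and free RNA, and a member's own correlation with depth was between -0.06 and 0.24. All 5 members were detected together in 140 Matrigel-only (6.71%), 34 Vehicle (2.48%) and 121 Palo (10.2%) stromal cells, and none of them in 229, 96 and 44, at the unequal depths of the libraries.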

How the data were processed

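Dispase-dissociated cells of each group entered 1 Chromium library. Per the labels, Cell Ranger 3.0.2 and mm10 were used, and the deposited values are unnormalized UMI counts of each gene in each barcode. Cells with over 6000 or under 200 genes or over 5% mitochondrial UMIs were left out, as in the study's methods, and the authors' clusters were not used here. Levels were summed UMIs per 1000000 (CPM), with exact Poisson intervals. Ratios had conditional binomial intervals and shares exact binomial intervals after hypergeometric thinning. Macrophage-marked cells had under 0.2% stromal UMIs and at least 3 of the macrophage markers. No doublet caller was run, and stromal cells with at least 1% macrophage-marker UMIs were left out as an alternative. The members and gene lists were chosen with earlier results of these data known. All members, the 4 genes of highest mean CPM per list and 5 neighbours per member were named; those of lists with no gene measured were given by counts alone, and 1 item is not reported here. *Pdgfra* and *Prrx1* were named after their values were seen. The intervals and thinning were tested on simulated Poisson counts. These lack the clumping of UMIs in single cells, so the intervals were not tested for it. Python 3.11.15, numpy 2.4.6, scipy 1.17.1, pandas 2.3.3, matplotlib 3.10.9 and, for TMM factors, edgeR 4.0.16 in R 4.3.3 were used. The choices varied were the scaling, the stromal and class definitions, the cell filters, the added CPM and the thinning depth.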

Additional observations from a re-analysis of the deposited data

Results flagged for a closer look

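Log2 ratios of the same contrast had opposite signs in different groups of cells, each with a counting interval clear of 0, for all 5 members. The rule was applied to the members only. The share of all genes that meet it was not counted, so nothing is read from the number of members. None of these differences between groups was tested. *Nov* in Sox9+ over Pi16+ cells was at 0.82 in the Matrigel-only library, -2.10 in Vehicle and -0.22 in Palo. The Vehicle value rests on 80 Pi16+ and 339 Sox9+ cells.

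For Palo over Vehicle, *Wisp2* was at 0.26 in Sox9+ cells and -1.07 in Pi16+ cells, and *Cyr61* at 0.66 in Sox9+ cells, -0.41 in Pi16+ cells and 0.60 in cells with none of the 3 genes. *Ctgf* went the other way, with -0.25 in Sox9+ cells, 0.75 in Pi16+ cells and -0.81 in cells with none of *Acan*, *Pi16* and *Sox9*. *Wisp1* was at -0.31, 0.58 and -0.47 in the same order. The Vehicle Pi16+ values rest on few UMIs for *Wisp1* (44) and *Ctgf* (92, of which 33 lay in 1 cell).

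For Palo over Matrigel-only, *Ctgf* was at -0.15 in Sox9+ cells, 0.46 in Pi16+ cells and 0.84 in cells with none of the 3 genes, and *Cyr61* at -0.65 in Pi16+ cells and 0.22 in cells with none of them. For Vehicle over Matrigel-only, *Wisp2* was at -0.69 in Sox9+ cells and 0.46 in Pi16+ cells.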

How the results depend on the processing

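Of 178 counts of members recomputed under alternatives, 167 stayed within 1.5 times the value reported, a limit that lets 3 members become 2. Under these alternatives none of the log2 ratios past 2-fold changed sign. At the fixed class mix, reported above, *Wisp2* for Vehicle over Matrigel-only nevertheless went from -1.13 to 0.28, with 0.08 as the lowest value at that mix. With the mean of per-cell CPM, 1 member was past 2-fold lower for Vehicle over Matrigel-only in place of 2, since *Wisp2* went to -0.95. In stromal cells without an *Acan* UMI, an alternative chosen after seeing the data, 1 was lower and 1 (*Wisp1*, 1.03) higher, and *Nov* stood at -2.03. For Sox9+ over Pi16+ cells in Vehicle, classes at 2 UMIs left 1 member higher, and classes on thinned cells 1 higher and 1 lower. In Palo, 3 members were higher with classes at 2 UMIs and 2 with classes on thinned cells or the mean of per-cell CPM. With at least 3% stromal UMIs, 1 member was lower for Acan+ over Sox9+ cells in Vehicle. At 6000 UMIs, 1 member (*Wisp1*) had a share in Palo below Vehicle with intervals apart, in place of 0. The share of all genes was not counted under these settings, so nothing is read from the recomputed counts. Of 400 log2 ratios 120 lay outside the counting interval or, at a fixed class mix, moved by over 0.1, and all 45 shares moved with depth or the UMI limit. The ratios had 5 CPM added, or 1 CPM in 1 setting, and the intervals had none, so the 120 include this mismatch. For *Nov* in Vehicle over Matrigel-only, the reported -2.91 on that scale itself lay outside the interval (-3.07 to -2.92). With CPM added, *Nov* ranged from -3.03 to -2.03 for Vehicle over Matrigel-only and from 2.68 to 3.68 for Palo over Vehicle. The limit of 6000 genes, lifted after seeing the data, had left out 15, 99 and 21 stromal cells, and 55 of the 99 Vehicle cells had an *Acan* UMI. Lifting it changed none of the counts between libraries in all stromal cells. Class, fixed-mix and share counts were not recomputed without this limit. Leaving out the cell with most UMIs of each member changed none of the counts between libraries, between classes or at the fixed mix. No paired analysis was possible because each group has 1 library, and no library could be left out.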

Other observations

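Cells that were neither stromal nor macrophage-marked comprised 530 Matrigel-only cells, 619 Vehicle cells and 208 Palo cells. In them *Cyr61* stood at 34.6 CPM (23.5 to 49.1), 52.6 CPM (41.2 to 66.1) and 46.4 CPM (28.8 to 71.0), with overlapping intervals. *Ctgf* stood at 13.4 CPM (6.91 to 23.4), 32.4 CPM (23.6 to 43.4) and 4.42 CPM (0.536 to 16.0), and 24 of its 45 Vehicle UMIs lay in a single cell. These levels include cells just under the stromal limit, with 0.8 to 1% stromal UMIs. In Vehicle 15 such cells held 52 of the 73 *Cyr61* UMIs and 28 of the 45 *Ctgf* UMIs. In Palo 3 such cells held 12 of 21 and 1 of 2, and in Matrigel-only 9 held 2 of 31 and 0 of 12.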
